A study of Mus musculus with 6 samples.

Results

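The heat shock proteins and DnaJ chaperones were read here in mouse frontal cortex that lacked parts of the Reelin signalling pathway. Members were all genes whose single platform symbol starts with Hspa, Hspb, Hspd, Hspe, Hsph, Hsp90, Dnaja, Dnajb or Dnajc, each read from its probe set of highest mean signal. There were 72 such genes among 18194 named genes, and 60 of them were among the 11577 genes with a mean signal of at least 89.0, the filter used for all counts. The 6 arrays each held RNA of 1 frontal cortical lobe from a mouse aged 21 days, on a background of C57BL/6 mixed with 129 and with no treatment. The mutants were a DAB1 KO and a REELIN KO from crosses of their own, and an APOER2-VLDLR KO (double receptor KO), a VLDLR KO and an APOER2 KO from 1 cross of mice heterozygous for both receptors. The Wild type (WT) mouse was a littermate from that receptor cross. All alleles are knockouts, and the labels name no Cre, transgene or clone. Mice without Reln, Dab1 or both receptors are known to show the reeler phenotype, so the first 3 mutants are grouped as reeler models, a term of the series title. The Vldlr KO, Apoer2 KO and WT arrays form the comparison arrays.

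Heat shock proteins are molecular chaperones. Hsp70 proteins bind and release unfolded stretches of protein using ATP, DnaJ proteins bring clients to Hsp70 and switch on its ATPase, Hsp110 proteins exchange the nucleotide, and small heat shock proteins hold clients without ATP. In neurons, where many proteins are long-lived, constitutive members are abundant, while the inducible members are switched on by heat shock factor 1 (Hsf1) after stress.

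The inducible members carry a known control sequence, which is shown because Hspb1, Hspa1a and Hspa1b had the widest spread over the arrays. A heat shock element was searched as GAANNTTC or TTCNNGAA (2 units) on both strands of the window from 250 bases before to 50 bases after each gene's start in RefSeq promoters of build GRCm38.p6. Of the 72 members, 59 had a window, and 16 of these (27.1%) held the 2-unit element, beside 17.0% of 27025 RefSeq genes. Among members listed as Hsf1 targets, 10 of 12 with a window held it. The 3-unit form GAANNTTCNNGAA or TTCNNGAANNTTC, which contains the 2-unit one, stood in Dnajb6, Hspd1, Hspe1 and Hsph1 (6.78% of members, beside 0.662% of all genes). The endoplasmic reticulum (ER) stress element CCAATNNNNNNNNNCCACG, chosen after the values were seen, stood in Dnajc3, Hsp90b1 and Hspa5 (5.08% of members, beside 0.137% of all genes). A match describes letters and shows no binding. The 250 bases before the start are printed with the matched element in capitals, from chr5:135887669-135887918 (plus strand) for Hspb1, chr17:34959239-34959488 and chr17:34972157-34972406 (minus strand) for Hspa1b and Hspa1a, and chr2:34771840-34772089 (plus strand) for Hspa5.
Hspb1: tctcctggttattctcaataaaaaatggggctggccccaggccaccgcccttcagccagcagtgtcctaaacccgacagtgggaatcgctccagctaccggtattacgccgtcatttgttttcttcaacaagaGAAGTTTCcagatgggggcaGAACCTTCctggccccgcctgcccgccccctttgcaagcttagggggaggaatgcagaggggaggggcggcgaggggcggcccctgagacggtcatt
Hspa1b: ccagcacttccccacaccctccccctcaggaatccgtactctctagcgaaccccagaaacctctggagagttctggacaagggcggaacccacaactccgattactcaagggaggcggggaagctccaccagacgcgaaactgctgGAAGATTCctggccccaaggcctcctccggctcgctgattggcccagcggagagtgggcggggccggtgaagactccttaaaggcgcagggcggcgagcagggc
Hspa1a: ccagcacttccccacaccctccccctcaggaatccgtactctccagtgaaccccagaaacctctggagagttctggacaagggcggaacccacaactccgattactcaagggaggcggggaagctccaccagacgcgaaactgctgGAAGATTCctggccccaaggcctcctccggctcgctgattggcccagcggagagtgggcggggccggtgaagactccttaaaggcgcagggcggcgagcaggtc
Hspa5: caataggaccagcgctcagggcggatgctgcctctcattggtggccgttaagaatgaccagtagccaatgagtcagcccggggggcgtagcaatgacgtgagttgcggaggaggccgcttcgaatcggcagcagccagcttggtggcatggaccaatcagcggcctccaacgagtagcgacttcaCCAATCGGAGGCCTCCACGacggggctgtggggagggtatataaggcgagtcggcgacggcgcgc
The elements of Hspb1 lie at -117 to -110 and -97 to -90 from the start, and those of Hspa1a and Hspa1b both at -104 to -97. The windows of Hspa1a and Hspa1b are identical at 247 of 250 bases. The ER element of Hspa5, the gene of the ER chaperone BiP, lies at -65 to -47.

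The targeted genes were read as a check of the labels. Reln read 79.9 on the Reln KO array and 1498 to 1880 on the others. Lrp8, the Apoer2 gene, read 13.7 on the double receptor KO array and 4.2 on the Apoer2 KO array, beside at least 342 elsewhere. Vldlr read 127 on the double receptor KO array and 218 on the Vldlr KO array, beside at least 472 elsewhere. Dab1 read 478.5 on the Dab1 KO array, beside 516 to 626, and whether that probe set lies in the deleted part is not known. All mice are labelled male, yet Xist read 125 on the Apoer2 KO array and 3368 to 4006 on the other 5, so 5 arrays did not match the label for sex. Cortical neuron markers were present (Neurod6 at 433.6 to 687.6 and Tbr1 at 330.4 to 403.5), and so were cerebellar granule cell markers. Of 9 granule cell genes past the filter, 7 had an adjusted p under 0.05 (limma) and all were lower in reeler models, with a summed signal of 3280 to 4686 on reeler arrays and 11276 to 14287 on comparison arrays, and none was at 0. These are markers of a cerebellar cell type, read here in tissue labelled frontal cortical lobe. They differed between the same classes that are compared below. Whether the amount of tissue from outside the frontal cortex differed between the classes was not tested. In bulk tissue, fewer cells of a type and less RNA per cell cannot be told apart. The part of the granule cell markers in the values below was not tested. The trimmed mean signal was 249.4 to 249.5 on every array.

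Across the family, the arrays differed little. The median member had an SD of 0.13 on the log2 scale over the 6 arrays, beside 0.16 for the median of all 11577 genes, and a range of 0.33, beside 0.43. A range of at least 2-fold was reached by 3 of 60 members (5%), Hspa1a, Hspa1b and Hspb1, and by 5.80% of all genes. The narrowest ranges were those of Hspd1, the mitochondrial chaperonin Hsp60, at 0.10, of Dnajc8 at 0.14 and of Hsp90aa1, the inducible cytosolic Hsp90, at 0.15. Differences and ranges are on the scale log2(signal + 28.1), which understates changes of dim genes.

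**Figure D1:**
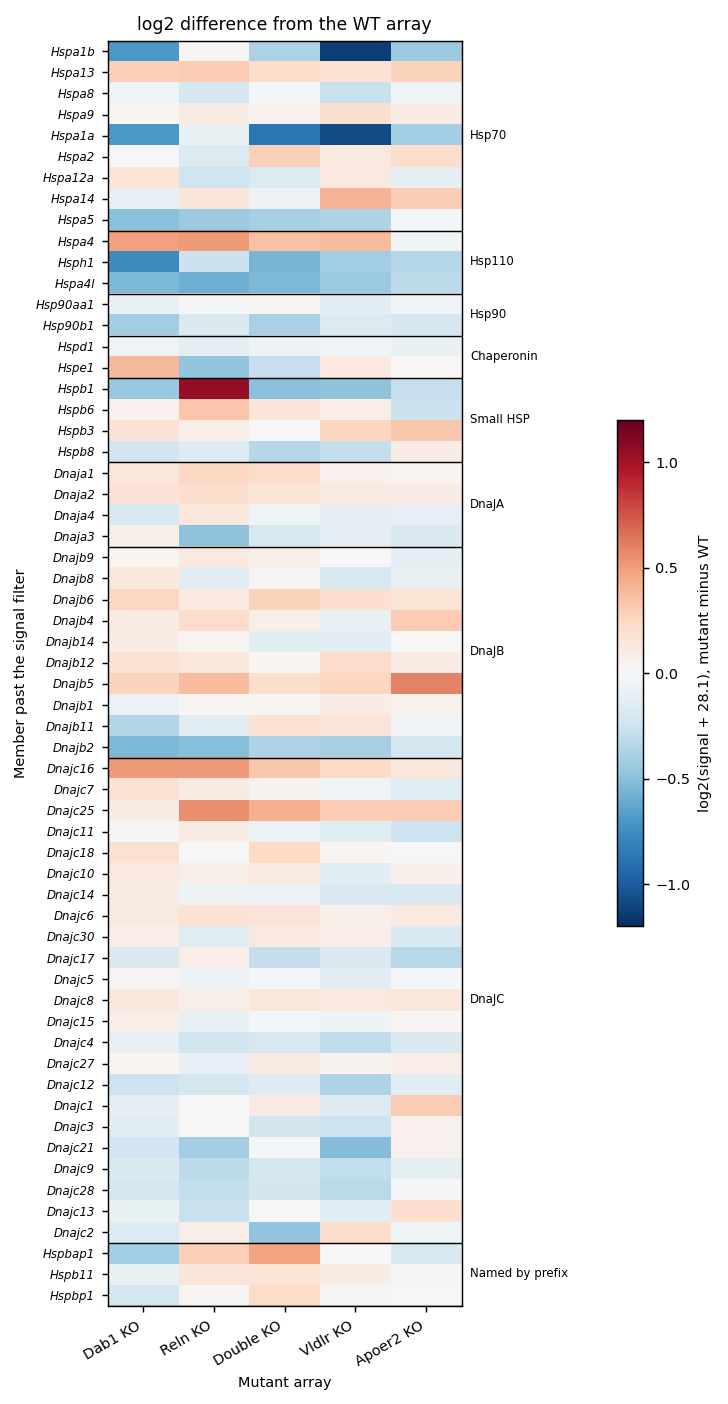
Difference of each mutant array from the WT array, log2(signal + 28.1), for the 60 members past the filter (rows, grouped by role) on the 5 mutant arrays (columns). Most cells are pale, and the deepest are Hspb1 on the Reln KO array (1.06) and Hspa1a and Hspa1b on the Vldlr KO array (-1.07 and -1.13).

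Reeler models were set against comparison arrays to ask whether loss of Reelin signalling goes with other chaperone levels. None of the 60 members passed an adjusted p of 0.05 (limma, adjusted over 11577 genes), and 15 of all genes (0.130%) did. At an unadjusted p under 0.05, 3 members were higher (Dnaja1, Dnajc16 and Hspa4), beside 5.26% of all genes, and 3 were lower (Dnajb2, Hspa4l and Hspa5), beside 5.71%, so the members' share of 10% stood near the 11.0% of all genes. The class difference was above 0 for 31 members and below 0 for 29, beside 52.2% and 47.8% of all genes. Its median was 0.01 for members and 0.01 for all genes. The 2 classes did not overlap for 8 members (13.3%), beside 17.6% of all genes. Dnaja1, Dnaja2, Dnajb9, Dnajc7, Dnajc10 and Dnajc16 had all reeler arrays above all comparison arrays (background 9.08%), and Hspa4l and Hspa5 had them all below (background 8.49%). No genotype had a second array, so the 3 genotypes of a class stood in for replicates.

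**Figure D2:**
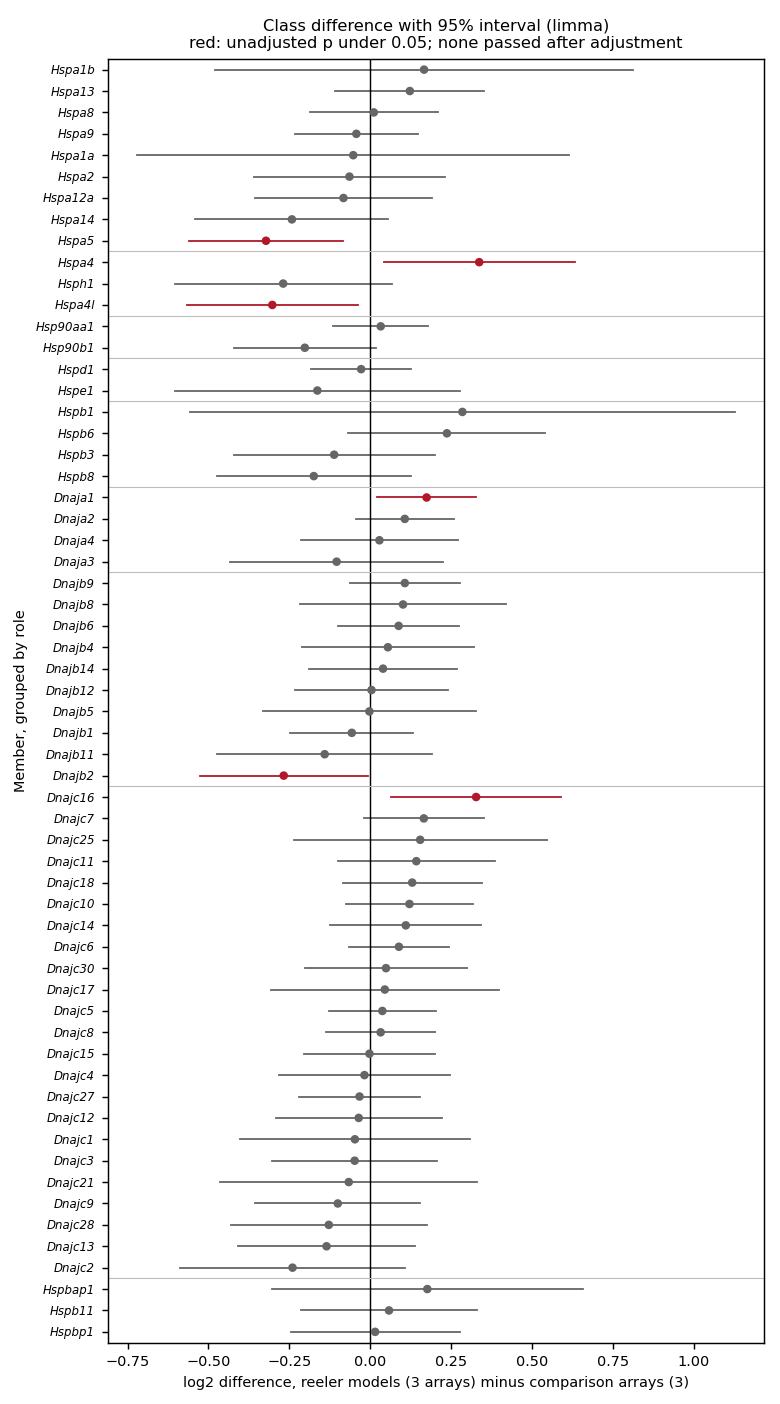
Class difference of the 60 members past the filter, log2(signal + 28.1), reeler models (3 arrays) minus comparison arrays (3 arrays), with the 95% interval from limma, grouped by role. Points lie on both sides of 0, from -0.32 for Hspa5 to 0.34 for Hspa4, and the widest interval is that of Hspb1.

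Of the 11 Hsp70 genes, 9 passed the filter, with a median class difference of -0.05, 3 above 0 and 6 below (beside 52.2% and 47.8% of all genes). Hspa5, which folds new proteins in the ER, had signals of 1953, 2040 and 2099 on the Dab1, Reln and double receptor KO arrays, against 2158, 2748 and 2777 on the Vldlr KO, Apoer2 KO and WT arrays. The classes were apart, with the Vldlr KO array close to the reeler arrays, and the class difference was -0.32 ± 0.10 (SE, 3 arrays a class; 95% interval -0.56 to -0.08; limma adjusted p = 0.358). A second probe set read it in the same direction (855, 1063 and 974 in reeler models, against 1165, 1299 and 1380), while its dimmest one read 686, 902 and 920, against 864, 757 and 822. The other members with an ER stress element had class differences of -0.20 (Hsp90b1, the ER Hsp90) and -0.05 (Dnajc3, an ER DnaJ protein that binds BiP). Of the 11 listed ER members, 6 were above 0 and 5 below. Hspa8, the constitutive cytosolic Hsp70, read 6707, 6007 and 6836 in reeler models, against 5766, 6701 and 6965 on the comparison arrays, a class difference of 0.01. Hspa9, the mitochondrial Hsp70, lay between 1062 and 1222 on all arrays.

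Hspa1a and Hspa1b encode the stress-inducible Hsp70 and are near-identical copies, so their probe sets can share target RNA. Hspa1a read 92.6, 155 and 78.6 on the Dab1, Reln and double receptor KO arrays, 64.4 and 118 on the Vldlr KO and Apoer2 KO arrays, and 166 on the WT array. Hspa1b read 133, 235, 172, 91.4 and 164 on the same mutant arrays in that order, and 233 on the WT array. For both genes the Reln KO and WT arrays were the highest and the Vldlr KO array was the lowest. The classes overlapped, with class differences of -0.05 ± 0.29 (adjusted p = 0.957, limma) and 0.17 ± 0.28 (adjusted p = 0.849, limma). The other probe sets of Hspa1b read 85.4 and 74.6 on the double receptor KO array, below their Vldlr KO readings of 105 and 85.9, so the order of these arrays depended on the probe set. Hspa1b was below the WT array at 3 of 3 probe sets on the Dab1 KO, double receptor KO, Vldlr KO and Apoer2 KO arrays.

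**Figure D3:**
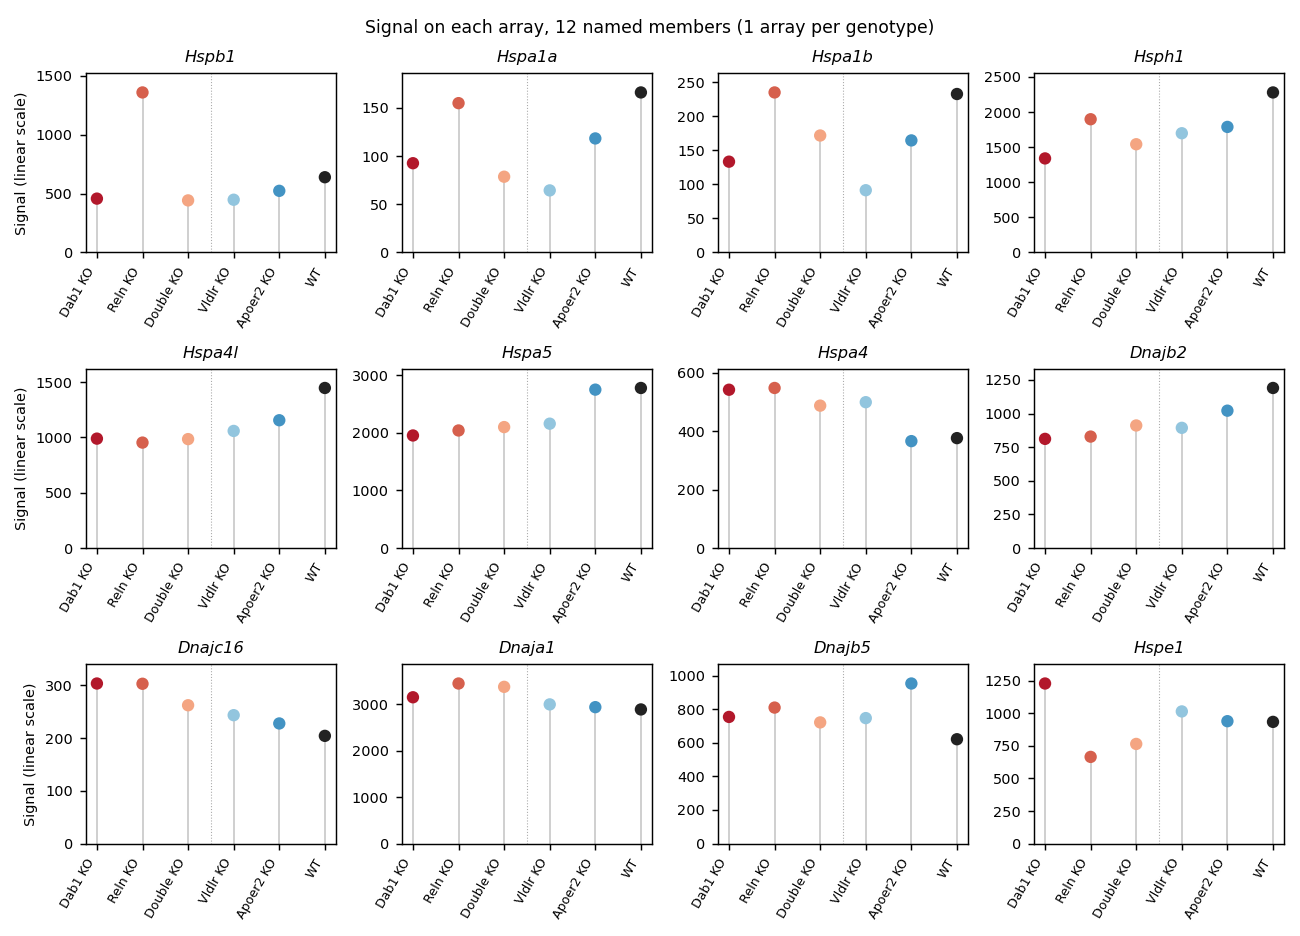
Signal (linear scale from 0) of 12 named members on the 6 arrays, 1 array per genotype, reeler models left of the dotted line and comparison arrays right of it. Hspb1 stands out on the Reln KO array (1360), and Hspa4l, Hspa5, Hsph1 and Dnajb2 are highest on the WT array.

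The 3 Hsp110 genes gave unlike readings. Hspa4l (Apg-1), abundant in testis and also made in brain, read 989, 954 and 985 in the Dab1, Reln and double receptor KO, against 1059, 1156 and 1447 in the Vldlr KO, Apoer2 KO and WT. The 3 reeler arrays lay within a narrow band and the WT array stood highest, as it did at 5 of 5 probe sets, and the class difference was -0.30 ± 0.12 (adjusted p = 0.418, limma). Without the WT array the class difference of Hspa4l was -0.18. Hsph1 (Hsp105) read 1340, 1898 and 1542 in reeler models, against 1698, 1788 and 2279, again with WT highest but with overlapping classes (-0.27 ± 0.15, adjusted p = 0.533, limma). Hspa4 read 541, 547 and 487 in reeler models, against 499, 366 and 376, a class difference of 0.34 ± 0.13 (adjusted p = 0.422, limma). Its other 2 probe sets gave the opposite sign, with 389, 313 and 386 in reeler models against 518, 461 and 459 at the brighter of them, so Hspa4 has no settled direction.

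Among Hsp90 genes, Hsp90aa1 read 5318, 5580 and 5746 in reeler models, against 5163, 5483 and 5628. Hsp90b1 read 1453, 1733 and 1484, against 1738, 1690 and 1951, with only the Reln KO array overlapping the comparison arrays (-0.20 ± 0.10, adjusted p = 0.479, limma). No probe set was named with Hsp90ab1 alone. The mitochondrial chaperonin Hspd1 lay between 2101 and 2261 on all 6 arrays. Its co-chaperonin Hspe1, which neighbours it, read 1229, 666 and 765 in the Dab1, Reln and double receptor KO, against 1015, 940 and 935 in the Vldlr KO, Apoer2 KO and WT. The Dab1 KO array was the highest and the Reln KO array the lowest, and the class difference was -0.16 ± 0.19 (adjusted p = 0.768, limma). A dimmer probe set of Hspe1 read 409, 336 and 419 in reeler models, against 456, 485 and 447, with the classes apart and the Dab1 KO array below WT, so the place of the Dab1 KO array depended on the probe set.

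Hspb1 (Hsp27), a small heat shock protein that binds actin and is made by glia and vessels as well as stressed neurons, had the widest range of all members. It read 458, 1360 and 443 on the Dab1, Reln and double receptor KO arrays, against 448, 524 and 640 on the Vldlr KO, Apoer2 KO and WT arrays. Only the Reln KO array stood above the others, at 2.08 times the WT array. A second probe set gave 75.4, 635 and 102 in reeler models, against 94.9, 197 and 232. Both probe sets were thus highest in the Reln KO and second highest in the WT. The class difference was 0.28 ± 0.37 (adjusted p = 0.792, limma), and without the Reln KO array it was -0.23. Of the other small heat shock proteins past the filter, Hspb6 had a class difference of 0.24, Hspb3 of -0.11 and Hspb8, which works with Bag3, of -0.17. Beside Hspb1, the 5 endothelial markers had a summed signal of 1933 on the Reln KO array and 1855 on the WT array, and the 7 astrocyte markers 19660 on the Reln KO array and 22611 on the WT array. Single endothelial markers differed both ways, with Cldn5 at 716 on the Reln KO array and 493 on the WT array and Slco1a4 at 781 on the Reln KO array and 922 on the WT array. None of these markers was at 0, and their part in the Hspb1 value was not tested.

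**Figure D4:**
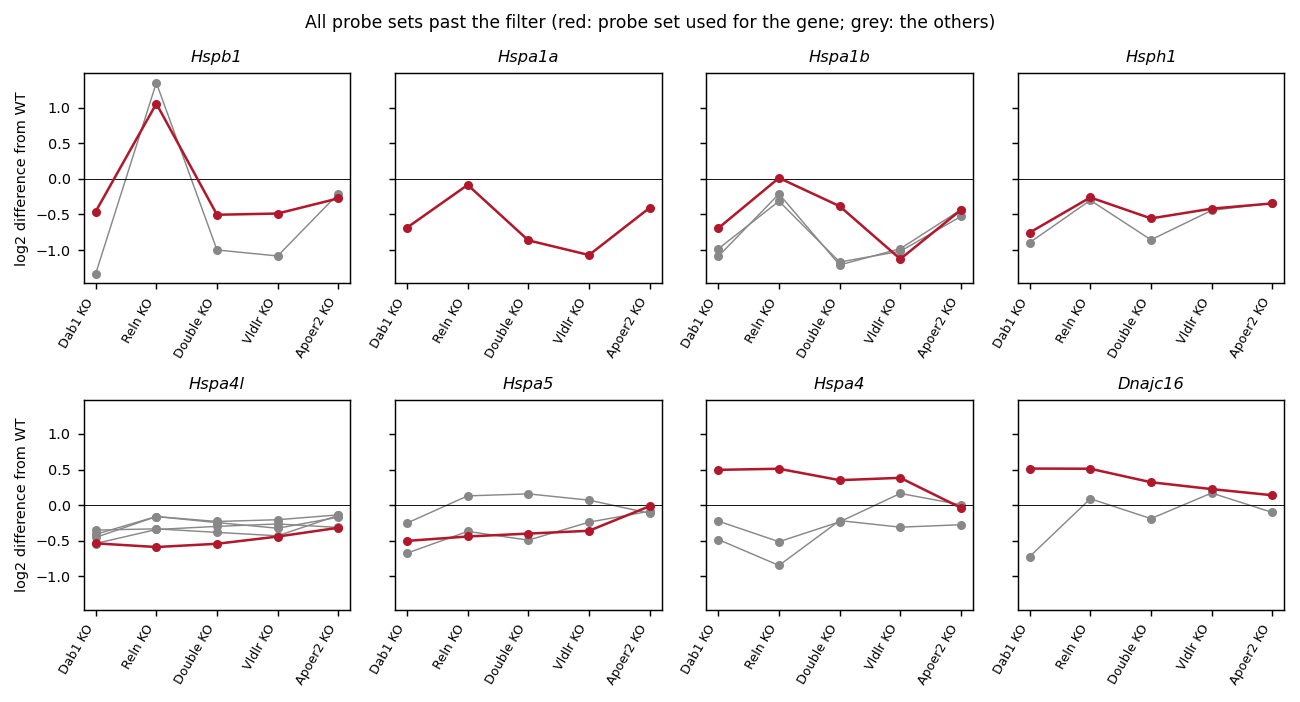
log2 differences from the WT array at each probe set past the filter of named members, so that points of 1 gene can be compared. Hspa1a has only 1 such probe set, and the other genes shown have several. Both Hspb1 probe sets lie high on the Reln KO array (1.06 and 1.35).

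All 4 DnaJA genes passed the filter. Dnaja1, a cytosolic DnaJ protein and Hsf1 target, read 3156, 3453 and 3381 in reeler models, against 3002, 2943 and 2893. The classes were apart, with a small class difference of 0.17 ± 0.07 (1.13-fold; adjusted p = 0.420, limma). Its other 2 probe sets past the filter overlapped between the classes, with class differences of -0.0049 and 0.03. Dnaja2, a constitutive relative, was also apart at 2953, 2999 and 2901, against 2821, 2780 and 2618. The other 2 probe sets of Dnaja2 past the filter had the opposite sign, at -0.06 and -0.12.

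Of 13 DnaJB genes, 10 passed the filter, 6 with a class difference above 0 and 4 below. Dnajb2, a neuronal DnaJ protein that binds ubiquitin chains, read 812, 829 and 912 in reeler models, against 894, 1022 and 1190. The double receptor KO array overlapped the Vldlr KO array, and the class difference was -0.27 ± 0.11 (adjusted p = 0.450, limma). Dnajb1, the main inducible Hsp40, lay between 695 and 780 on all arrays at its brighter probe set. Its dimmer one read 576, 476 and 616 in reeler models, against 634, 720 and 635, a class difference of -0.25. Dnajb9, an ER member, was apart with a class difference of 0.11 (adjusted p = 0.609, limma). Dnajb5 read 754, 810 and 722 in reeler models, 748 and 954 on the Vldlr KO and Apoer2 KO arrays, and 622 on the WT array, which was the lowest. At another probe set the WT array was not the lowest, with 655 and 666 on the Dab1 and double receptor KO arrays, against 707.

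Of 27 DnaJC genes, 23 passed the filter, 12 above 0 and 11 below, with a median class difference of 0.03 and a lowest one of -0.24 for Dnajc2, which sits on ribosomes. Dnajc16 read 303, 303 and 262 in reeler models, against 243, 228 and 204 (0.33 ± 0.12, adjusted p = 0.388, limma). Its dimmer probe set read 101, 199 and 159, against 212, 171 and 185, so this gene too has no settled direction. The synaptic members were steady at their brightest probe sets. Dnajc5, the cysteine string protein of synaptic vesicles, lay between 2169 and 2437, and Dnajc6 (auxilin), which uncoats clathrin vesicles, between 2438 and 2746. Class differences over the probe sets past the filter ran from -0.02 to 0.08 for Dnajc5 and from -0.21 to 0.09 for Dnajc6. The dimmest of these for Dnajc6 read 108, 99.2 and 131 in reeler models, against 111, 134 and 162. Of the genes that share only the prefix, Hspbp1, an Hsp70 exchange factor, had a class difference of 0.02, Hspbap1 of 0.18 and Hspb11 (Ift25), a cilium protein, of 0.06.

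Single probe sets did not always carry a gene. Of 174 member probe sets, 128 passed the filter. Of 38 members with several such probe sets, 18 had 1 sign of the class difference throughout, and 4 (Dnajc16, Hspa1b, Hspa4 and Hspa8) had probe sets of opposite sign that differed by over 0.5.

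Each mutant was then set against the WT array, 1 array against 1, with no test and with the WT array shared by all 5 comparisons. At least 2-fold differences among members numbered 0 on the Dab1 KO array (background 1.04% of genes), 1 on the Reln KO (2.53%), 0 on the double receptor KO (0.942%), 2 on the Vldlr KO (0.700%) and 0 on the Apoer2 KO (0.406%). These were Hspb1, 2.08-fold higher in the Reln KO (1.19% of genes were higher by that much), and Hspa1a and Hspa1b, 2.10-fold and 2.18-fold lower in the Vldlr KO (0.458% were lower). The members' share was 1.67% in the Reln KO, below its background, and 3.33% in the Vldlr KO, above it, where both genes are near-identical copies and so no independent readings. At 1.5-fold, a threshold chosen after seeing the data, the Dab1 KO had 3 lower members (Hspa1a, Hspa1b and Hsph1, beside 3.81% of genes). The Reln KO had Hspb1 higher (4.69%) and Hspa4l lower (5.78%), and the double receptor KO had Hspa1a lower (3.20%). The Vldlr KO had Hspa1a and Hspa1b lower (2.64%), and the Apoer2 KO had Dnajb5 higher (1.17%). Against the mean of the 3 comparison arrays in place of WT, the difference of Hspb1 in the Reln KO was 1.31 and that of Hsph1 in the Dab1 KO was -0.50. Hspb1 thus stood further above that mean than above WT, and the lower members stood closer to it than to WT. On the same footing Hspa1a and Hspa1b in the Dab1 KO were at -0.19 and -0.17, Hspa1a in the double receptor KO was at -0.37 and Hspa4l in the Reln KO at -0.34.

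Past these, the highest and lowest members of each mutant were small steps from WT. Dnajc25 read 135 and 121 on the Reln and double receptor KO arrays, against 83.1 on the WT array. Hspbap1 read 369 on the double receptor KO array and 186 on the Dab1 KO array, against 257 on the WT array. Hspa14, a ribosome-associated Hsp70, read 493 on the Vldlr KO array, against 365 on the WT array. Hspb3 read 171 on the Apoer2 KO array, against 130 on the WT array. On the log2(signal + 28.1) scale no difference of these 4 genes reached 1.5-fold.

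**Figure D5:**
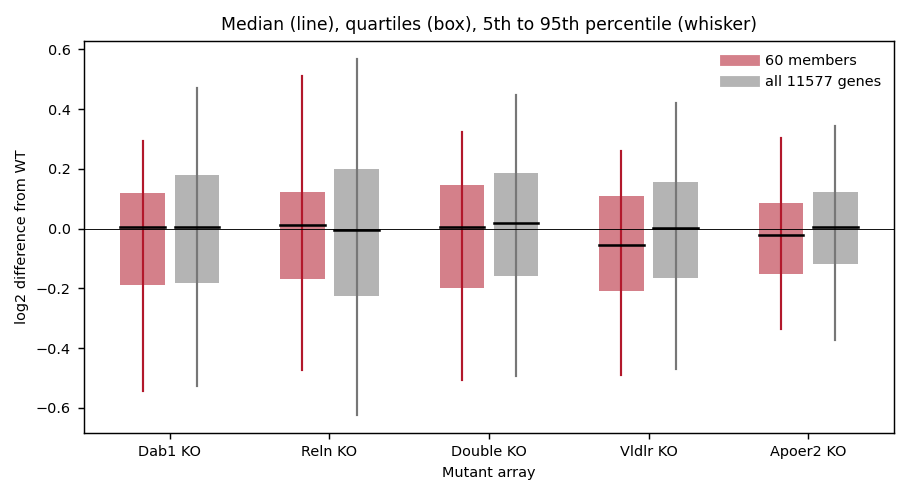
Spread of the log2 difference of each mutant array from the WT array for the 60 members past the filter (red) and all 11577 genes (grey); line, box and whiskers are the median, the quartiles and the 5th to 95th percentiles. The members' medians run from -0.06 on the Vldlr KO array to 0.01 on the Reln KO array.

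The WT array was the highest of the 6 for 12 members (20%, beside 18.0% of all genes), among them Hspa5, Hspa4l, Hsph1, Hspa1a, Hspa8 and Hspd1. It was the lowest for 13 members (21.7%), among them Dnaja1, Dnaja2, Dnajb6 and Hspa9. The share of all genes with the WT array lowest is not given here, so that count has no background. The Vldlr KO array was the lowest for 15 members (25%, beside 15.4%). Of the 14 Hsf1 targets past the filter, 7 were above and 7 below 0 in the class difference, with a median of -0.01. Dnaja4 and Dnajb4, cytosolic DnaJ proteins of this list, had class differences of 0.03 and 0.05. The other probe sets of Dnaja4 past the filter had the opposite sign (-0.47 and -0.22), and those of Dnajb4 the same sign (0.04 and 0.10). The median difference of the 14 Hsf1 targets from WT was -0.13 in the Dab1 KO, -0.05 in the Reln KO, -0.17 in the double receptor KO, -0.20 in the Vldlr KO and -0.07 in the Apoer2 KO. For all genes these medians were 0.007, -0.005, 0.018, 0.001 and 0.007, in the same order. All of these differences share 1 WT array, and the targets include the near-identical Hspa1a and Hspa1b. Of the 9 mitochondrial members, 2 were above 0 (beside 52.2% of all genes) and 7 below (beside 47.8%). Their median was -0.03, and they include the neighbouring genes Hspd1 and Hspe1. The 10 immediate early genes, markers of recent neuronal activity, had summed signals of 7320, 12463 and 9233 in the Dab1, Reln and double receptor KO, 5488 and 10747 in the Vldlr KO and Apoer2 KO, and 6085 in the WT. Their sum was highest in the Reln KO and lowest in the Vldlr KO. Egr1 was highest in the Apoer2 KO (5225) and Dusp1 in the double receptor KO (1072), while Egr1 and Fosb were lowest in the WT. The other genes of the list followed the sum. None of the list was at 0, and their part in the Hspb1, Hspa1a and Hspa1b values was not tested.

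Partner genes that the prefixes leave out were read from a list of 54, of which 49 passed the filter. None passed an adjusted p of 0.05 (limma, 0.130% of all genes). At an unadjusted p under 0.05 (limma), 6 of the 49 were higher (beside 5.26% of all genes) and 5 were lower (beside 5.71%). Both shares of the 49 were above those of all genes, in a list chosen with earlier results of these data known. Their median class difference was 0.03, with 27 above and 22 below 0. Chordc1, an Hsp90 co-chaperone, read 349, 307 and 413 in reeler models, against 462, 599 and 637 on the comparison arrays, with the classes apart (-0.62 ± 0.15, adjusted p = 0.230, limma). Sdf2l1, an ER partner of BiP, read 118, 102 and 91.2, against 140, 163 and 202, also apart (-0.57 ± 0.16, adjusted p = 0.296, limma). Cryab, a small heat shock protein without the prefix, read 636, 506 and 629, against 568, 730 and 1410, where the WT array alone was high. Fkbp5, an Hsp90 co-chaperone induced by glucocorticoids, read 986, 1986 and 871, against 489, 669 and 518, with the classes apart and the Reln KO array highest (1.07 ± 0.27, adjusted p = 0.254, limma). Hsf4 and Pih1d1 followed at 0.42 and 0.33.

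The 12 members below the filter were Dnajb3, Dnajb7, Dnajb13, Dnajc5b, Dnajc5g, Dnajc22, Dnajc24, Hspa1l, Hspa12b, Hspb2, Hspb7 and Hspb9, with mean signals of 2.35 to 79.5. Probes for bacterial control transcripts gave a highest reading of 28.4 to 39.6 per array. Of the 12, 3 exceeded that maximum on every array (Dnajc24, Hspb2 and Hspb7) and 2 on none (Dnajb7 and Hspa1l, known mainly from testis).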

How the data were processed

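Each deposited value is the intensity of a probe set (45101 of them on each of 6 arrays), which the authors made on a linear scale with the tools Affymetrix Expression Console and MAS5, as the submitters' processing notes list them without versions. Per the labels, RNA was taken up in RNA-Stat60 and turned into biotinylated cRNA. Names came from the platform annotation (34958 probe sets with 1 symbol, 932 with several, 9211 unnamed here), and each gene took its probe set of highest mean signal. The analysis used log2(signal + 28.1), with the 25th percentile of all values as pseudocount, and genes whose mean signal reached 89.0, the median of the probe set means. The classes were compared with limma 3.58.1 in R 4.3.3 (trended empirical Bayes, Benjamini-Hochberg over 11577 genes). Its p-values treat genotypes as replicates, and the number of arrays limits the precision. The procedure was run on simulated data with known changes. With 200 genes changed 2-fold, it recovered 94% of them and made 17 false calls. Changes as small as the members' class differences (log2 -0.32 to 0.34) were not simulated, so their recovery is not known. The simulated arrays had independent noise, so this run cannot test the use of genotypes as replicates. Each mutant against WT had 1 array a side and no test.

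Named members were those past an adjusted p of 0.05 or 2-fold from WT, the 6 highest and 6 lowest of the class comparison, the 2 highest and 2 lowest of each mutant, the Hsf1 targets and members with discordant probe sets, and of other chaperones the 3 highest and 3 lowest. Further members and probe sets named for their role were chosen after their values were seen. The members and gene lists were chosen with earlier results of these data known. Promoters came from RefSeq, and protein sequences were not analysed here. Alternatives varied the pseudocount, normalization, filter, probe set choice, prior, comparison arrays, a cross covariate and each array.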

Additional observations from a re-analysis of the deposited data

How the results depend on the processing

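No member passed the adjusted p under any class setting, leaving out each array included. The 15 called genes of the whole table became 0 with the WT array as the only comparison array and 9 with the receptor cross as a covariate, and leaving out 1 array gave 1 (without WT) to 23 (without Dab1 KO). The 3 members higher at an unadjusted p under 0.05 became 0 with the mean of all probe sets and 0 with the cross covariate, and leaving out 1 array gave 0 (without Reln KO or WT) to 2. The 3 lower ones became 1 with the covariate, and leaving out 1 array gave 1 (without Apoer2 KO or WT) to 5 (without Reln KO). Members at least 2-fold from WT changed as follows. Without a filter they numbered 3 in the Reln KO (Dnajc22 and Hspa12b added) and 1 in the Apoer2 KO (Dnajb13). With a pseudocount of 1 there was 1 in the double receptor KO, and with the median as pseudocount 0 in the Reln KO and 0 in the Vldlr KO. The Vldlr KO had 1 after quantile normalization and 0 with the filter at the 75th percentile. At 1.5-fold, chosen after seeing the data, the counts were 3 in the Dab1 KO, 2 in the Reln KO, 1 in the double receptor KO and 1 in the Apoer2 KO.

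Of 25 named members, 13 kept the sign of the class difference in all 14 class settings. With the mean of all probe sets the sign turned for Dnaja4 (-0.22), Hspa1b (-0.17), Hspa4 (-0.090), Hspa8 (-0.18) and Dnajb5 (0.0087). With the WT array alone it turned for Dnaja4 (-0.039), Dnajb5 (0.28), Hsp90aa1 (-0.021), Hspa1b (-0.35), Hspa8 (-0.098) and Hspb3 (0.082). Quantile normalization turned Dnajb5 (0.010), Hsp90aa1 (-0.068) and Hspa8 (-0.089), the cross covariate turned Dnajb4 (-0.0049) and Hspb1 (-0.25), and leaving _x_at probe sets for last turned Hspa8 (-0.17). Leaving out 1 array gave class differences of -0.052 to 0.10 for Dnaja4, -0.026 to 0.17 for Dnajb4, -0.14 to 0.15 for Dnajb5, -0.0027 to 0.062 for Hsp90aa1, -0.34 to 0.19 for Hspa1a, -0.14 to 0.43 for Hspa1b, -0.070 to 0.068 for Hspa8, -0.23 to 0.55 for Hspb1, -0.0039 to 0.44 for Hspbap1 and -0.42 to 0.012 for Hspe1. The cause was not tested. The report gives the values against the mean of the 3 comparison arrays, which kept their direction. No paired analysis was possible because each genotype has 1 array and the labels give no replicate numbers. Signals near the bacterial controls are bounds more than levels, and dim members have no ranked differences.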

Other observations

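Below the filter, 3 values were at least 2-fold from the WT array. On the Reln KO array Dnajc22 read 13.7, against 66.0 on the WT array, and Hspa12b read 59.3, against 13.6. On the Apoer2 KO array Dnajb13, known from sperm flagella, read 26.4, against 101 on the WT array. Each pair has 1 reading near the bacterial controls. Growth hormone (Gh) read 3705 on the Apoer2 KO array and 13.1 to 32.4 on the other 5 arrays.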
